A study of Mus musculus with 12 samples.

Results

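The genes described here are Btg4 and 9 genes of the CCR4-NOT complex, Cnot1, Cnot2, Cnot3, Cnot6, Cnot6l, Cnot7, Cnot8, Cnot9 and Cnot10. They were chosen by name, for their part in shortening the poly(A) tails of maternal mRNA, and are 10 of the 56691 genes in the count table. They were followed by bulk RNA-seq in mouse oocytes of 2 genotypes at 3 stages of meiotic maturation, with 2 libraries in each of the 6 groups. Alkbh5 encodes an m6A RNA demethylase. The WT groups are oocytes at the germinal vesicle stage (GV, before culture), after germinal vesicle breakdown (GVBD, a few hours of culture) and at metaphase II (MII, after overnight culture). The KO groups are Alkbh5-/- oocytes collected at the same times, from a total knockout in which CRISPR-Cas9 removed exon 1 with the start codon, so that every cell of the animal, follicle cells included, lacked the gene. All groups came from juvenile females primed with PMSG, and each library is a pool of oocytes isolated at GV and denuded. Those of the GVBD and MII groups were then released from milrinone into M16 medium. Samples were taken by time, and the study describes most KO oocytes as arrested before GVBD, so the libraries labelled KO GVBD and KO MII can hold oocytes of an earlier stage, which cannot be told apart from an effect of the genotype at a matched stage.

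The total counts of the 12 libraries, in units of 1e6, were 28.56 to 40.25, with 221927 to 838409 counts on ERCC, an exogenous RNA mix added in equal amount to each tube. Levels are given as spike-in-scaled counts, the counts divided by each library's ERCC total relative to the mean over libraries. In such pools, fewer oocytes and less RNA per oocyte cannot be told apart. Alkbh5 had 5355 to 10181 counts in the 6 WT libraries and 54 to 143 in the 6 KO libraries (log2 fold change -5.90 ± 0.42 (SE) over all stages, edgeR adjusted p = 1.61e-05). The 8 oocyte markers summed to 8744 to 16189 CPM (counts scaled to the same total of endogenous counts in each library). The 10 cumulus or granulosa markers summed to 25.7 to 74.4 CPM, most of it from Cyp19a1 (577 to 2225 counts). The other 9 summed to 2.27 to 12.8, with Foxl2 at 0 in 10 of 12 libraries and Amh at 0 in 11. The summed level of the 10 markers was 37.7 to 74.4 in the KO GVBD and KO MII libraries and 25.7 to 40.0 in the WT GVBD and WT MII libraries, and its part in the results was not tested.

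The CCR4-NOT complex is the main cytoplasmic deadenylase: it removes the poly(A) tail of an mRNA, after which the mRNA is usually degraded. In a fully grown oocyte transcription has stopped, and many stored maternal mRNAs are deadenylated and lost between GV and MII. BTG4 is an oocyte adaptor protein, made from a dormant mRNA during maturation, that binds the CNOT7 and CNOT8 nucleases and brings the complex to maternal transcripts.

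The 3′ ends of Cnot transcripts are shown first, because a dormant maternal mRNA is typically controlled through a cytoplasmic polyadenylation element (CPE) near its poly(A) signal, and because libraries selected for tailed RNA read a gene in proportion to its tailed copies. Positions are GRCm38 with the GENCODE M21 annotation, all within the 3′ UTR. The motifs in capitals are the poly(A) signal, AATAAA or ATTAAA, and the CPE, TTTTAT or TTTTAAT. They were searched on the transcript strand in the last 100 bases of a gene's coding transcript. Of the coding transcripts with a complete 3′ end, the one with the longest 3′ UTR was used. Over 21747 coding genes, 75.1% of such windows held a poly(A) signal and 16.7% a CPE.
Cnot3 (Cnot3-201, chr7:3661067-3661096, + strand): tggaaaatatttatgAATAAAtagTTTTAT
Cnot1 (Cnot1-202, chr8:95719516-95719545, - strand): actttaaaaaaaaagatgtattgaTTTTAT
Cnot7 (Cnot7-201, chr8:40492562-40492591, - strand): ttatttgtttttaaagcttttgtaAATAAA
Cnot9 (Cnot9-201, chr1:74530791-74530820, + strand): atccctcaccctcaacaggATTAAAATAAA

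Of the 8 Cnot genes with a complete annotated 3′ end, 6 held a poly(A) signal in this window and 2 a CPE, namely Cnot1 and Cnot3. Cnot3 held both within the 30 bases shown. In Cnot9 the ATTAAA and AATAAA overlap. Cnot10 held neither motif in its window, and the coding transcripts of Cnot8 have no complete annotated 3′ end. A gene's count sums over its annotated ends, so which end was used was not resolved. In WT oocytes between GV and MII, the 2 Cnot genes with a CPE had log2 changes of 0.04 (Cnot3) and -1.23 (Cnot1), described further on.

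Per transcript length, Btg4 was by far the most abundant of the 10 in every library (the plot of levels per length). Its level was 1717 to 6359 TPM (counts per kilobase of annotated exon, scaled to the same total in each library), which gave it ranks of 23 to 98 among 52073 genes. Cnot7, one of the DEDD-type nuclease subunits, followed with 182 to 457 TPM. Its paralog Cnot8 had 26.1 to 89.2 TPM. The EEP-type nuclease genes were lower, with 14.5 to 42.0 TPM for Cnot6l and 2.97 to 8.58 TPM for Cnot6. Thus in each nuclease pair one paralog supplied most of the transcripts.

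**Figure D1:**
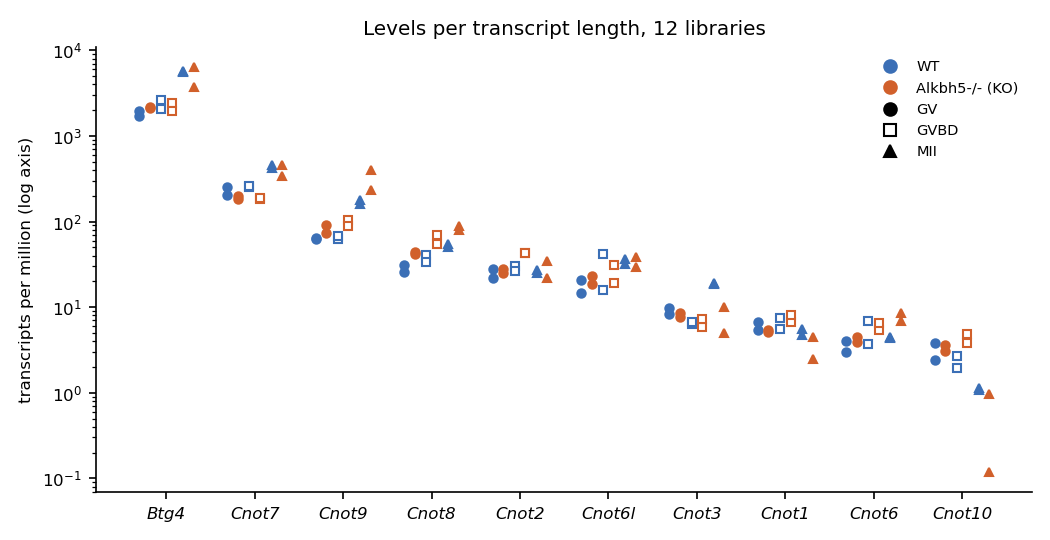
TPM (log axis) of the 10 genes, ordered by median level, in each of the 12 libraries; colour gives the genotype and symbol shape the stage. Btg4 lies above Cnot7 and Cnot7 above Cnot9 in all 12 libraries, and Cnot10 has the lowest point, in a KO MII library.

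Among the non-catalytic subunits, Cnot9, whose product binds CNOT1 and adaptor peptides, had 62.4 to 401 TPM. Cnot2 and Cnot3, which form the NOT module, had 21.7 to 42.9 and 5.05 to 19.1 TPM. Cnot1, the scaffold that holds the other subunits, had 2.47 to 8.07 TPM, and Cnot10, part of the module at the end of CNOT1, had 0.118 to 4.84 TPM. The order Btg4, Cnot7, Cnot9, Cnot8, Cnot2 held for each neighbouring pair in 12 of 12 libraries. Cnot2 and Cnot6l were not separated, as Cnot2 was the higher in 7 of 12 libraries. Cnot3 was above Cnot1 in 9 of 12 libraries and Cnot1 above Cnot6 in 10 of 12. Btg4 made up 81.7 to 88.3% of the summed TPM of the 10 genes.

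From GV to MII in WT oocytes, the median gene fell by 1.06 on the log2 scale per spike-in, whereas the 10 members had a median of -0.13 (the plot of changes from GV to MII). In all, 2 of the 10 members passed the test, both lower, beside 30.9% of 18816 genes tested (0.393% higher and 30.5% lower). A gene passed where its adjusted p was under 0.05 and its log2 fold change at least 1 in size (edgeR quasi-likelihood test, Benjamini-Hochberg over all genes tested). The share of members that fell was thus no higher than that of all genes. Where counts were scaled to the bulk of genes instead (TMM), the median of all genes was -0.22, and 3 members passed, Btg4 and Cnot9 higher and Cnot10 lower, beside 24.0% of genes (7.06% higher and 17.0% lower).

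Btg4 had 99872 and 108133 spike-in-scaled counts in the WT GV libraries, then 125283 and 107151 after GVBD, and 185592 and 126972 at MII. Both MII libraries lay above both GV libraries, as they did for 3.54% of genes. The change from GV to MII was 0.59 ± 0.40 (adjusted p = 0.288), which is 1.65 above the median gene and higher than the change of 95.6% of the genes tested. With TMM scaling it was 1.45 ± 0.13 (adjusted p = 0.0024), 1.67 above the median gene. A change of scaling moves all genes by about the same amount, so the distance from the median gene is nearly fixed between the scalings. Per spike-in the change did not pass the test.

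In KO oocytes Btg4 had 149244 and 127043 spike-in-scaled counts before culture, 155745 and 98806 in the libraries labelled GVBD and finally 158870 and 179320. The MII libraries were again above the GV libraries, as for 3.59% of genes, with a change of 0.29 ± 0.40 (adjusted p = 0.687). The 2 genotypes overlapped in range at GVBD and MII. The difference between the genotypes in the GV to MII change was -0.30 ± 0.51 (adjusted p = 1), and 0 of 10 members passed that test, beside 0% of 20807 genes (0 members at an unadjusted p under 0.05, and 0 by DESeq2).

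**Figure D2:**
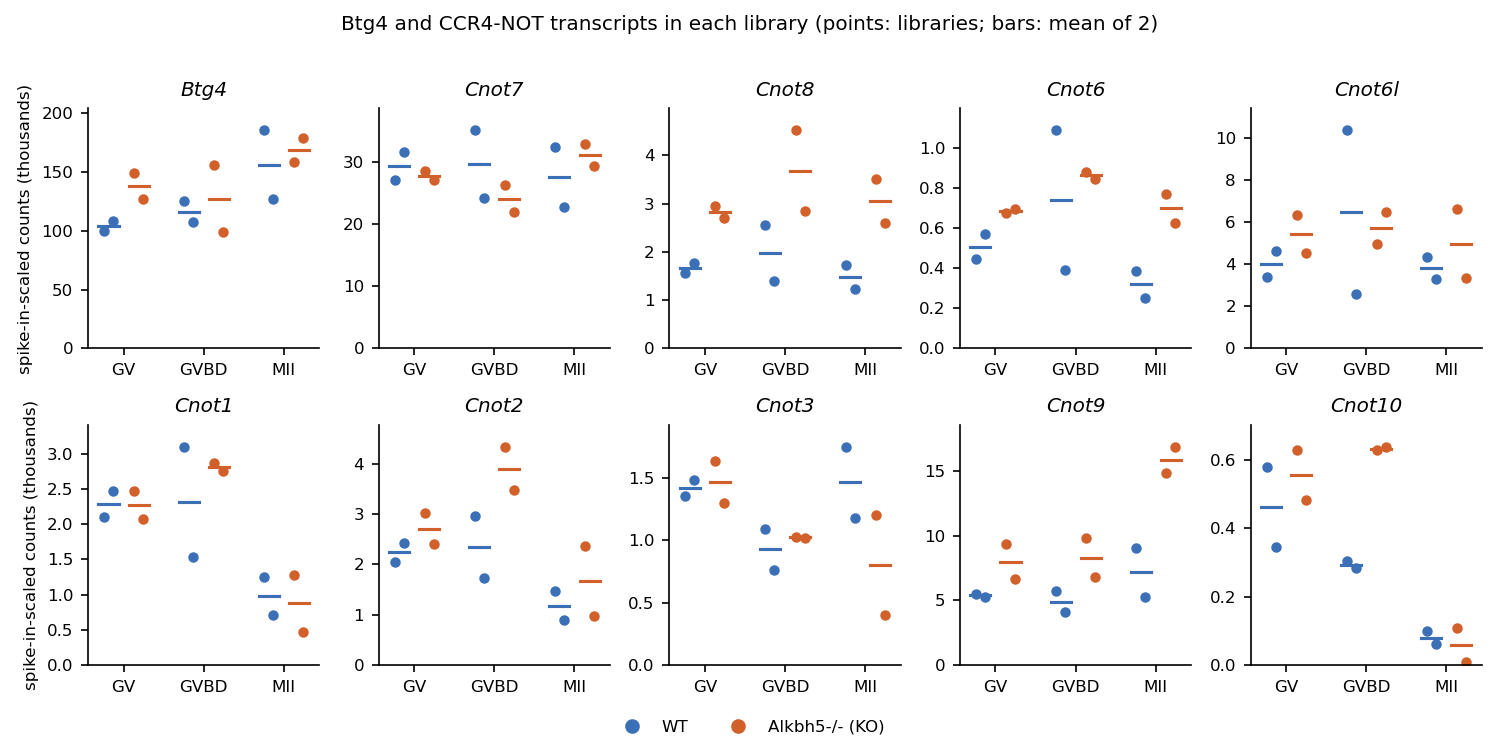
Spike-in-scaled counts of each of the 10 genes (panels) by stage; points are single libraries and bars the mean of 2, in blue for WT and orange for KO. Cnot8 is higher in both KO libraries than in both WT libraries at every stage, as is Cnot9, and Cnot10 is lowest at MII in both genotypes.

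Cnot10 showed the largest fall of the 10 in both genotypes. In WT it had 580 and 344 spike-in-scaled counts in the GV libraries, 304 and 283 after GVBD, then 99 and 61 in the MII libraries. The MII libraries lay below all other WT libraries (58.0% of genes had both MII libraries below both GV libraries), and the change from GV to MII was -2.53 ± 0.60 (adjusted p = 0.000187), 1.47 below the median gene. The call was kept with TMM scaling (-1.69 ± 0.35, adjusted p = 0.0201), and was lost without WT GV replicate 1 (adjusted p = 0.127) or without WT MII replicate 2 (adjusted p = 0.0648).

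In KO oocytes Cnot10 had 630 and 482 spike-in-scaled counts in the GV libraries and 628 and 638 in the GVBD libraries. The MII libraries had 108 and 9, the last from 12 raw counts. Both MII libraries lay far below the rest, but apart from each other, and 61.4% of genes had both below both GV libraries. The change from GV to MII was -3.26 ± 1.1 (adjusted p = 0.109) and from GVBD to MII -3.45 ± 1.0 (adjusted p = 0.0313), a call lost without any 1 library other than KO MII replicate 1 (adjusted p from 0.0656 to 0.687). Without KO MII replicate 2, the library with 9, the GV to MII change was -2.36 (adjusted p = 0.00687). Without KO MII replicate 1 it was -5.99 (adjusted p = 1.55e-07). The genotypes did not differ detectably in this change (-0.73 ± 1.25, adjusted p = 1).

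Cnot1, the scaffold gene, had 2108 and 2478 spike-in-scaled counts in the WT GV libraries, 3102 and 1529 after GVBD, then 1255 and 703 in the MII libraries. It fell by 1.23 ± 0.50 on the log2 scale from GV to MII (adjusted p = 0.0439), close to the median gene (0.17 below it). With TMM scaling its change was -0.40 ± 0.16 (adjusted p = 0.119) and the call was lost. The call was also lost without WT GV replicate 1 (adjusted p = 0.439), WT GV replicate 2 (adjusted p = 0.6) or WT MII replicate 2 (adjusted p = 0.0894). In KO, Cnot1 had 2480 and 2077 at GV and 1283 and 467 at MII, a change of -1.38 ± 0.69 (adjusted p = 0.243).

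After Btg4, Cnot9 had the largest distance above the median gene from GV to MII in WT. Cnot3, Cnot6l, Cnot7 and Cnot8 were also above it, by less. WT libraries held 5488 and 5302 spike-in-scaled counts in the GV libraries, 5701 and 4117 after GVBD, then 9101 and 5278 in the MII libraries, so that GV and MII overlapped. The change from GV to MII was 0.41 ± 0.47 (adjusted p = 0.572), 1.48 above the median gene and higher than that of 93.2% of genes tested, and 1.24 ± 0.12 with TMM scaling (adjusted p = 0.00295). Per spike-in it was -0.03 to 0.75 when 1 library was left out, the lowest without WT MII replicate 1. In KO, Cnot9 had 9376 and 6635 at GV and 14913 and 16913 at MII, without overlap. That change was 0.99 ± 0.52 (adjusted p = 0.269), higher than the change of 98.6% of genes tested, and 2.28 ± 0.46 with TMM scaling (adjusted p = 0.0539).

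The changes of the nuclease genes were smaller in size per spike-in than that of the median gene. In WT from GV to MII, Cnot7 changed by -0.09 ± 0.44, Cnot8 by -0.17 ± 0.49, Cnot6l by -0.07 ± 0.47 and Cnot6 by -0.67 ± 0.54, none of which passed the test. Relative to the median gene, these changes were 0.97, 0.89, 0.99 and 0.40 higher. In the NOT module, Cnot2 changed by -0.92 ± 0.49 and Cnot3 by 0.04 ± 0.49. Neither NOT module gene passed.

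In KO oocytes from GV to MII, 0 of the 10 members passed, beside 3.28% of 18777 genes (616 genes, 615 of them lower), and 1 member, Cnot10, had an unadjusted p under 0.05. DESeq2 called 1 member, again Cnot10. The members' median was -0.05 and that of all genes -1.17. Without KO MII replicate 1, which leaves replicate 2 as the only KO MII library, 5 members passed, Cnot1, Cnot2, Cnot3 and Cnot10 lower and Cnot9 higher, in a fit that passed 11075 of 20437 genes (11013 lower), so the members' share was near that of all genes. The other MII library, replicate 2, held 467 spike-in-scaled counts of Cnot1 against 1283, 976 of Cnot2 against 2365 and 397 of Cnot3 against 1204 in replicate 1. It also had the fewest genes with at least 1 count, 19837, of the 12 libraries.

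**Figure D3:**
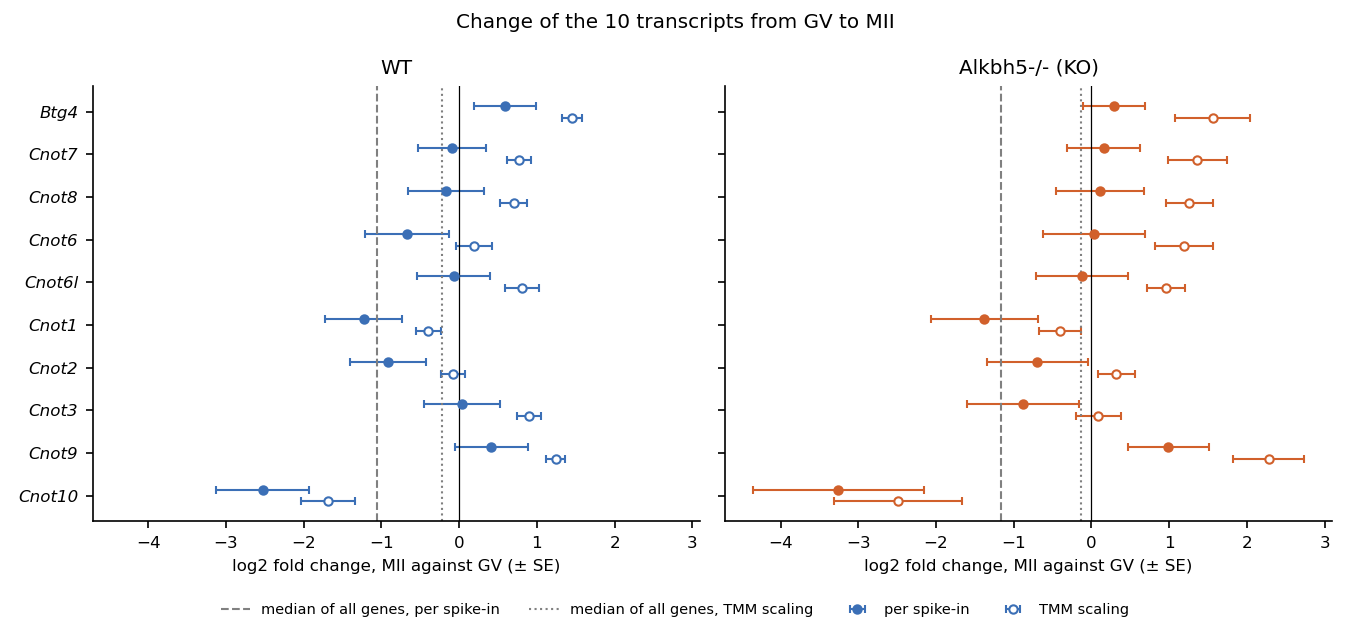
Log2 fold change from GV to MII (± SE) of the 10 genes in WT (left) and KO (right), per spike-in (filled) and with TMM scaling (open); dashed and dotted lines mark the median of all genes under each scaling. Cnot10 lies farthest to the left in both panels, and Btg4, Cnot9 and most of the other genes lie to the right of the median gene under both scalings.

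From GV to GVBD, no member passed in either genotype, beside 0.0511% of 19566 genes in WT and 0.220% of 19064 in KO. In both comparisons 0 members had an unadjusted p under 0.05, and DESeq2 called 0 members. The 2 WT GVBD libraries differed widely for Cnot6l (10347 and 2587 spike-in-scaled counts) and Cnot6 (1090 and 390). This spread was larger than any difference between the stage means of these 2 genes in WT. From GVBD to MII, Cnot10 alone passed in WT (-1.88 ± 0.74, adjusted p = 0.041, and 0.056 to 0.263 when any 1 library was left out), beside 27.8% of 19211 genes, and in KO, beside 7.20% of 17966 genes. With TMM scaling Btg4, Cnot3 and Cnot9 passed as higher in WT from GVBD to MII, beside 25.2% of genes, and Cnot10 did not pass (-0.98, adjusted p = 0.0929).

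The KO against WT comparison asks whether the deadenylase genes themselves differed in oocytes that lack ALKBH5. In GV oocytes 0 members passed the test, beside 0.0977% of 19452 genes. In the GVBD comparison 0 passed, beside 2.54% of 19462 genes, and in the MII comparison 0, beside 0.803% of 17566. Over all stages 0 passed, beside 1.26% of 22004. In the same fits 3, 0, 0 and 2 members had an unadjusted p under 0.05, and DESeq2 called 0 members in each. The median gene was 0.36, 0.23, 0.30 and 0.29 higher in KO per spike-in, and the members' medians were 0.34, 0.26, 0.28 and 0.26. The 10 genes as a group therefore sat at the median of all genes.

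Within the group, Cnot8 and Cnot9 stood highest over all stages (the plot of KO against WT). Cnot8 and Cnot6 lie on chromosome 11, as does the edited gene Alkbh5. Whether this position has a part in their differences between genotypes was not tested. Cnot8 had 1566 and 1770 spike-in-scaled counts in WT GV and 2957 and 2707 in KO GV. At GVBD it had 2561 and 1400 in WT and 4520 and 2852 in KO, and at MII 1730 and 1237 in WT and 3518 and 2594 in KO. Per spike-in each of the 6 KO libraries was above each of the 6 WT libraries, narrowly (lowest KO 2594, highest WT 2561). In CPM this held within each stage only, as KO GV had 57.3 and 60.2 and WT MII replicate 2 had 65.1. The share of all genes with such separation across stages was not counted. Over all stages the difference was 0.90 ± 0.23 (adjusted p = 0.0703), 0.61 above the median gene, and with TMM scaling 0.67 ± 0.16 (adjusted p = 0.0337), in both cases under the fold minimum. Over the 12 fits that each left out 1 library the difference was 0.81 to 1.02, with adjusted p from 0.0365 to 0.216, and DESeq2 gave an adjusted p of 0.00435.

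Cnot9 was higher in both KO libraries than in both WT libraries at each stage as well. At GVBD it had 5701 and 4117 spike-in-scaled counts in WT and 9858 and 6784 in KO. Over all stages the difference was 0.83 ± 0.23 (adjusted p = 0.0894), and 0.62 ± 0.22 with TMM scaling (adjusted p = 0.135). Cnot8 and Cnot9 were 2 of 10 members whose KO libraries lay above the WT libraries at all 3 stages, beside 5.39% of all genes tested, and they were the same 2 in CPM, beside 5.32%. Some 134 exonic bases of Cnot9, 3.5% of its exons, overlap Usp37 on the opposite strand, and whether counting used strand is not given in the sources used here.

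**Figure D4:**
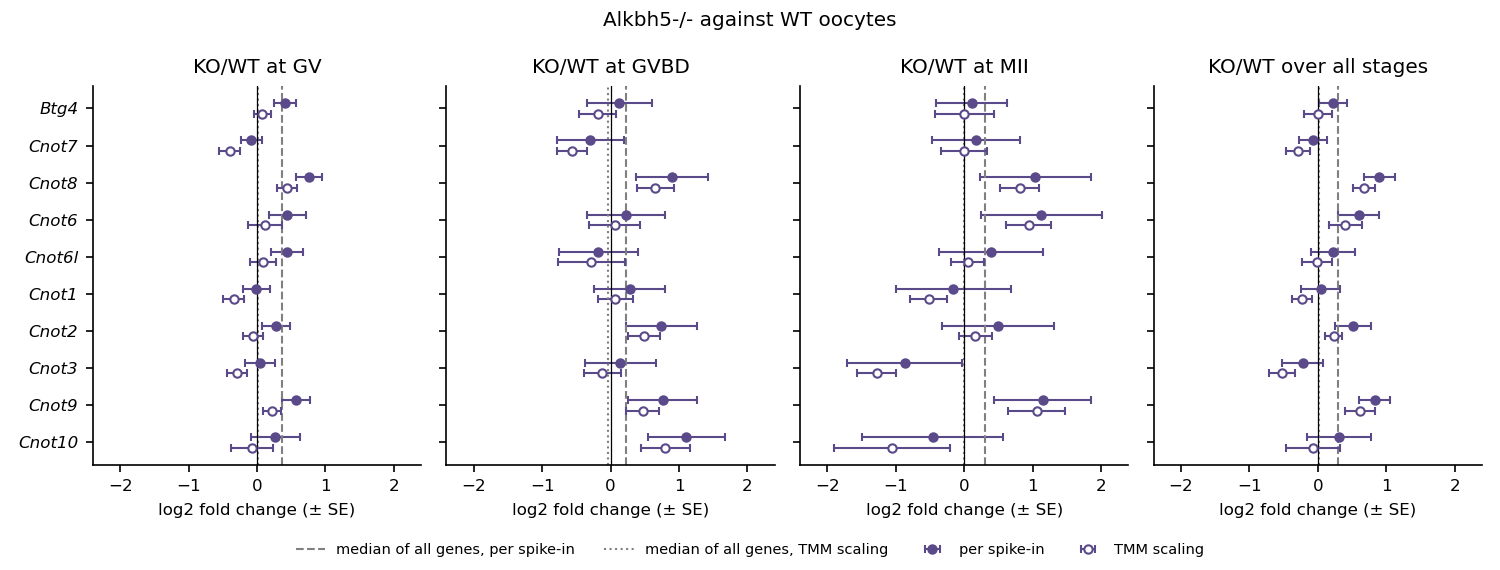
Log2 fold change of KO against WT (± SE) of the 10 genes at GV, GVBD, MII and over all stages, per spike-in (filled) and with TMM scaling (open); dashed and dotted lines mark the median of all genes. Cnot8 and Cnot9 lie to the right of the median gene in every panel, and Cnot7 to the left of it per spike-in.

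Btg4 itself did not differ detectably. Its KO against WT difference was 0.41 ± 0.16 at GV (adjusted p = 0.253), near the median gene of 0.36, 0.13 ± 0.48 at GVBD and 0.11 ± 0.52 at MII. Over all stages it was 0.22 ± 0.21 (adjusted p = 0.607), and -0.00 ± 0.20 with TMM scaling. At GV both KO libraries lay above both WT libraries for Btg4, per spike-in and in CPM. Per spike-in this held for 42.2% of genes. Cnot7 was close to equal per spike-in (-0.07 ± 0.21 over all stages, adjusted p = 0.889), which is 0.36 below the median gene. The SE at MII was 0.52 for Btg4 and 0.64 for Cnot7, so small differences at that stage could not be detected with 2 libraries a group.

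Cnot3 was the member farthest below the median gene over all stages (-0.22 ± 0.30, adjusted p = 0.725), and with TMM scaling -0.53 ± 0.19 (adjusted p = 0.132). At MII it had 1749 and 1181 spike-in-scaled counts in WT and 1204 and 397 in KO, a difference of -0.87 ± 0.84 (adjusted p = 1). Per spike-in the ranges of the 2 genotypes overlapped. In CPM both KO MII libraries (33.9 and 18.0) were below both WT MII libraries (59.1 and 62.2). The share of all genes that were lower in this way is not given here. Cnot10 had 304 and 283 in WT and 628 and 638 in KO at GVBD, without overlap, a difference of 1.11 ± 0.56 (adjusted p = 0.363). Cnot6 had 388 and 253 in WT and 774 and 626 in KO at MII, also without overlap (1.13 ± 0.88, adjusted p = 1). Such separation at a single stage was common, as 42.2% of genes at GV, 30.3% at GVBD and 22.1% at MII had both KO libraries above both WT libraries.

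Because CNOT7 and CNOT8 occupy the same place in the complex, as do CNOT6 and CNOT6L, the ratio of the transcripts within each pair was compared. Such a ratio does not depend on the scaling of a library. The longest run of bases shared by the transcripts was 20 in each pair. Cnot7 counts were 17.3 and 17.9 times those of Cnot8 in the WT GV libraries, 13.7 and 17.4 times after GVBD, then 18.7 and 18.4 times in the MII libraries. In KO they were 9.67 and 10.03 times in the GV libraries, 5.81 and 7.69 times in the GVBD libraries, then 9.37 and 11.3 times in the MII libraries. Every KO library was below every WT library (the plot of paralog ratios). The share of other gene pairs that separate in this way was not counted.

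The mean log2 ratio of Cnot7 to Cnot8 was 3.13 ± 0.34 (SD, n = 6) in KO and 4.10 ± 0.16 (SD, n = 6) in WT. The difference, averaged over stages, was -0.97, with an exact two-sided permutation p = 0.00926, the smallest that genotype labels exchanged within stages can give (216 arrangements). Adjusted over the 4 tests made on the ratios (Benjamini-Hochberg), the exact permutation p was 0.037. The ratio uses the same counts as the comparisons of Cnot7 and Cnot8 above, so it is not a separate observation. Per spike-in, Cnot7 was close to equal between the genotypes over all stages, and Cnot8 was higher in KO without passing the test. Cnot8 also shares a chromosome with Alkbh5, as given above. By stage the difference in the log2 ratio was -0.84 (GV), -1.21 (GVBD) and -0.85 (MII). It was -1.03 to -0.90 over the 12 fits that each left out 1 library. Per length, Cnot7 made up 56.0 to 61.8% of the summed TPM of the 9 Cnot genes in WT and 41.4 to 52.2% in KO. Some 247 exonic bases of Cnot7, 4.2% of its exons, overlap Zdhhc2 on the opposite strand.

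**Figure D5:**
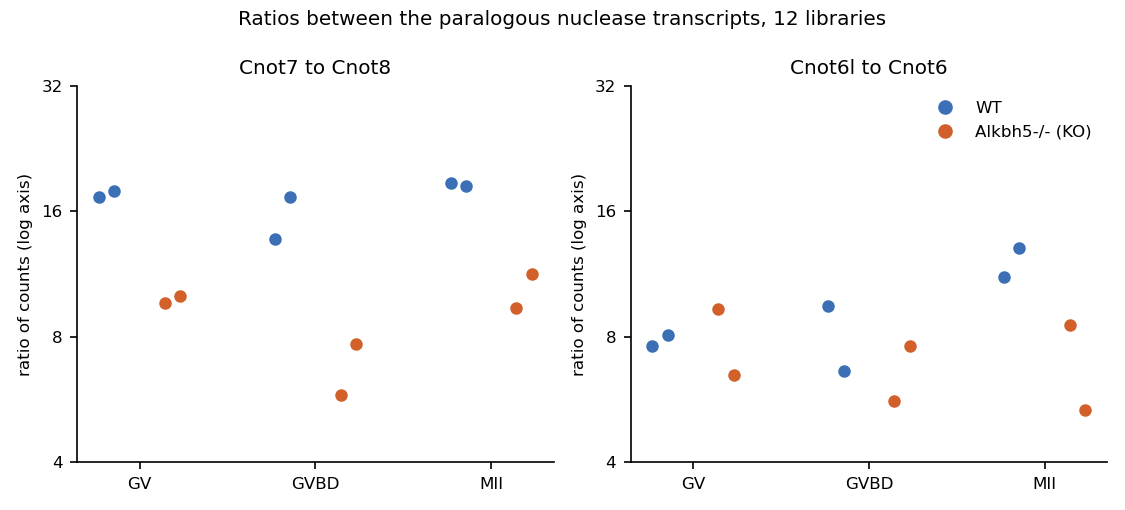
Ratio of Cnot7 to Cnot8 counts (left) and of Cnot6l to Cnot6 counts (right) in each library by stage (log axis); blue points are WT and orange points KO. The 6 KO libraries have Cnot7 to Cnot8 ratios of 5.81 to 11.3 and the 6 WT libraries of 13.7 to 18.7, whereas the Cnot6l to Cnot6 ratios of the genotypes overlap at GV and GVBD.

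For the EEP-type pair, Cnot6l counts were 7.60 and 8.08 times those of Cnot6 in WT GV, 9.49 and 6.64 times in WT GVBD and 11.1 and 13.0 times in WT MII. In KO they were 9.34 and 6.48, 5.62 and 7.60, and 8.54 and 5.34 times at the same stages. The genotypes separated at MII but not at GV. The KO minus WT difference in the log2 ratio was -0.38 (exact permutation p = 0.0926, adjusted 0.185), with -0.01 at GV, -0.28 at GVBD and -0.83 at MII. From GV to MII neither ratio changed detectably, by 0.21 for Cnot6l to Cnot6 (exact permutation p = 0.5) and 0.07 for Cnot7 to Cnot8 (exact permutation p = 0.389), where the smallest p possible was 0.0556.

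Other genes of the pathway were read from lists of genes that act in or beside deadenylation. Of the 3 other CCR4-NOT genes, Cnot11, whose product pairs with CNOT10, fell in WT oocytes between GV and MII (-1.46 ± 0.50, adjusted p = 0.0133). Cnot4 (0.17 ± 0.45) and Tnks1bp1 (-0.33 ± 0.51) did not pass. As given above, 30.5% of all genes passed as lower in this comparison, and the median gene was at -1.06. With TMM scaling Cnot11 did not pass (-0.59, adjusted p = 0.0778), and its call was lost without either WT GV library.

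Of the 5 other BTG and TOB genes, relatives of Btg4 that also bind CNOT7 and CNOT8, 1 passed in WT oocytes between GV and MII, Tob1 (-2.02 ± 0.79, adjusted p = 0.0378), and the median was -0.05. The call of Tob1 was lost when any of the 4 libraries was left out. With TMM scaling Btg1 passed as higher (1.06, adjusted p = 0.0134) and Tob1 did not pass. Of the 9 other deadenylase genes, 2 passed, both lower, a share below the 30.5% of all genes, Pnldc1 (-2.17 ± 0.57, adjusted p = 0.000817) and Pde12 (-1.99 ± 0.65, adjusted p = 0.00986), and the median was -0.04. With TMM scaling Pan2, the catalytic subunit of the PAN2-PAN3 deadenylase, was among 2 genes higher (1.78, adjusted p = 0.00196), and Pnldc1 was the 1 gene lower (-1.40, adjusted p = 0.0219).

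Of the 8 genes for poly(A)-binding proteins and their partners, 3 passed from GV to MII in WT, all lower, a share near the 30.5% of all genes. They were Paip2, an inhibitor of PABP (-2.56 ± 0.50, adjusted p = 3.75e-06), Pabpc1l, the embryonic PABP (-2.46 ± 0.55, adjusted p = 7.33e-05), and Pabpc1 (-2.00 ± 0.52, adjusted p = 0.000862). Paip2 and Pabpc1l also passed with TMM scaling, where 1 other gene of the list was higher. The calls of Paip2 and Pnldc1 were lost without either WT GV library, that of Pabpc1l without WT GV replicate 1, and those of Pabpc1 and Pde12 in 3 of 4 such fits each. Among 16 tested genes of the 18 for RNA-binding proteins that recruit the complex, 1 passed, Zfp36l2 (-1.88 ± 0.70, adjusted p = 0.0277), in none of the 4 fits that left out a library. Nanos3 had no count in any library. In KO from GV to MII, 0 genes of these 5 lists passed (1 other deadenylase gene and 1 recruiter gene had an unadjusted p under 0.05, and DESeq2 called 0).

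Between KO and WT, 1 gene of these lists passed, Pabpn1l, which encodes a nuclear-type poly(A)-binding protein of the oocyte that is known to act with BTG4. It passed at GVBD, beside 2.54% of all genes tested, and over all stages, beside 1.26%. DESeq2 called other genes of these lists too, among them 2 of 9 other deadenylase genes at GVBD and 2 over all stages. At GV it called 1 BTG or TOB gene and 1 recruiter gene, and at MII none. Pabpn1l had 3050 and 5143 counts in the WT GVBD libraries and 15464 and 14345 in the KO GVBD libraries. The difference was 2.25 ± 0.53 at GVBD (adjusted p = 0.0233) and 1.36 ± 0.28 over all stages (adjusted p = 0.0336). With TMM scaling it was 1.89 at GVBD (adjusted p = 0.121) and 1.11 over all stages (adjusted p = 0.0449). The call over all stages was kept in 4 of 12 fits that each left out 1 library (adjusted p 0.0248 to 0.105), and that at GVBD in 1 of 4.

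The genes whose pattern over the 12 libraries was most like that of Btg4 were Tcl1b2 (Pearson's r = 0.992), Slc35a1 (0.986) and Ccnb1 (0.985), among 10836 named genes with a mean count of at least 50. For Cnot7 they were Unc13c (0.985), Nlrp9c (0.976) and Klhl1 (0.976), and for Cnot6l Psme4 (0.974), Suco (0.956) and Smg1 (0.948). These are correlations of log2 TMM-scaled CPM over 12 libraries that share stage and depth, so they are given as descriptions. The patterns of Btg4 and Cnot7 largely follow the step between the MII libraries and the others. That of Cnot6l does not, as it had 228 CPM in WT GVBD replicate 1 and 146 to 186 in the MII libraries. Within the group, Btg4 was closest to Cnot7 (r = 0.93) and most opposed to Cnot10 (r = -0.91).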

How the data were processed

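The authors deposited 1 table of counts per gene and per ERCC sequence for 12 libraries. Per the submitters' processing notes, reads were trimmed with cutadapt 1.9, aligned to mm10 with HISAT2 2.0.4 and passed to StringTie 1.3.4d. The step that gave whole-number counts, and its use of strand, are not given in the sources used here. The study's methods describe a low-input kit primed on poly(A) tails, and the labels a different, bead-based poly(A) protocol. No molecular identifiers were used, so counts are not independent molecules, and total counts (28.56 to 40.25, in units of 1e6) bound the counting error only.

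Members and gene lists were chosen with earlier results of these data known. Symbols came from a table of Ensembl gene IDs (52073 of 56691 matched), and positions, lengths and transcript sequences from GENCODE M21 on GRCm38. Each comparison was fitted on the libraries of its groups with edgeR 4.0.16 (R 4.3.3; glmQLFit and glmQLFTest, filterByExpr, library sizes proportional to ERCC totals) and adjusted over all genes tested. All 10 members passed the filter in all 11 comparisons. Paralog ratios were tested by exact two-sided permutation within stage or genotype. TMM, median-of-ratios, an ERCC minimum of 10 counts, no filter, at least 10 counts in every library, DESeq2 1.42.0, a single model, no fold minimum, the replicate block and leaving out each library were the alternatives. Scripts were tested on simulated data. The study calls the 2 samples of a group biologically independent without naming animals or cultures, and p-values measure the spread between these 2 libraries. Named genes were the 10 members, Alkbh5, up to 4 genes a list with the lowest adjusted p from GV to MII in WT plus any called between genotypes, and the 3 genes most like Btg4, Cnot6l and Cnot7. No column of the table was left unused. The 3′ end of 1 member is not reported here.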

Additional observations from a re-analysis of the deposited data

Results flagged for a closer look

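The KO against WT difference of Cnot10 had opposite signs at GVBD and MII, relative to other genes, with neither passing the test. In CPM, both KO libraries were above both WT libraries at GVBD (TMM-scaled log2 fold change 0.80 ± 0.36, adjusted p = 0.32) and below both at MII (-1.06 ± 0.85, adjusted p = 0.56). The shares of all genes that separate in these ways in CPM are not given here. Per spike-in, 30.3% of genes had both KO libraries above both WT libraries at GVBD. The WT GVBD libraries held 6.70 and 9.32 CPM and the KO GVBD libraries 12.9 and 16. In the MII libraries these were 3.34 and 3.22 CPM in WT and 3.04 and 0.389 in KO. Whether the stages differ was not tested. The lowest value rests on 12 counts in KO MII replicate 2, and the MII libraries of the genotypes overlapped per spike-in.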

How the results depend on the processing

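Of the settings that used all libraries of a comparison, 84 of 99 counts of members called stayed within 1.5 times the count reported, and 78 of 88 medians moved by less than the spread between replicates (0.16 to 0.51 by comparison), which is wide enough to hold changes of over 1.5 times. For KO against WT, GVBD against GV and the genotype difference, the reported count and that of every such setting were 0. Most of the 84 counts were thus 0 against 0, and all 15 that moved compared MII with an earlier stage. Without a fold minimum no member's call changed, and the cause of each change below was not tested beyond what the setting itself removes. With TMM and median-of-ratios scaling, the members' median was 0.01 and -0.01 for KO against WT at GV, 0.74 and 0.87 for MII against GV in WT, 1.07 and 1.09 in KO, 0.46 and 0.50 for MII against GVBD in WT, and 0.65 and 0.69 in KO. Median-of-ratios scaling called 4 members from GV to MII in WT, beside 4825 of 18816 genes. Both scalings called 3 members from GVBD to MII in WT (beside 4847 and 5003 of 19211 genes) and 0 in KO (beside 418 and 411 of 17966). From GV to MII in WT, a single model of 12 libraries and no filter called 1 member each. From GV to MII in KO, 1 member, Cnot10, was called by DESeq2, the single model, no filter and at least 10 counts in every library. From GVBD to MII in WT the single model and no filter called 0.

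Leaving out each library in turn, members called ranged from 0 to 3 from GV to MII in WT, 0 to 5 in KO, 0 to 0 from GVBD to MII in WT and 0 to 3 in KO. The fits with 3, 5 and 3 members called passed 5347 of 20483, 11075 of 20437 and 6334 of 19455 genes, each without MII replicate 1, so these counts moved with the whole table. The KO against WT medians ranged from 0.14 to 0.44 (GV), -0.03 to 1.08 (GVBD), -0.05 to 0.62 (MII) and 0.16 to 0.44 (all stages). The medians between stages ranged from -0.40 to 0.08 for MII against GV in WT and -0.42 to 0.19 in KO, -0.39 to 0.34 for GVBD against GV in WT and -0.07 to 0.33 in KO, -1.06 to 0.13 for MII against GVBD in WT and -0.64 to 0.07 in KO, and -0.38 to 0.43 for the genotype difference in the MII against GV change. The KO minus WT difference in the log2 ratio of Cnot6l to Cnot6 ranged from -0.49 to -0.26, with exact permutation p = 0.0278 to 0.231. The lone library of an arm is assumed there to vary like the other groups, and even Alkbh5 lost its call at single stages in 4 of 12 such fits.

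The 2 libraries of a group share numbers across groups but nothing says that a number marks a batch, and same-numbered deviations correlated by -0.22 to 0.22 over 13273 genes. With the replicate block, 1 member was called from GV to MII in KO (beside 2462 of 18777 genes) and 2 from GVBD to MII in WT (beside 6099 of 19211). Cnot8 over all stages had an adjusted p of 0.0197 with the block. The ratio of Cnot7 to Cnot8 differed by -0.97 with the block, with an exact sign-flip permutation p = 0.0312. Depth limits Cnot10 most, with 12 counts in its lowest library. DESeq2 passed more genes in all than edgeR for KO against WT (676 and 19 at GV, 901 and 494 at GVBD, 346 and 141 at MII, 1356 and 278 over all stages), for GVBD against GV (371 and 10 in WT, 225 and 42 in KO), for MII against GV in KO (3068 and 616), for MII against GVBD in KO (2261 and 1293) and for the genotype difference in the MII against GV change (150 and 0). In the other comparisons the counts were within 1.5 times, 5520 by DESeq2 and 5821 by edgeR for MII against GV in WT and 5449 and 5339 for MII against GVBD in WT.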
